A study of Mus musculus with 6 samples.

Results

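Solute carriers are membrane proteins that move sugars, amino acids, ions, metals, nucleosides, lipids and cofactors across the plasma membrane or the membranes of organelles. Members were selected on detection: genes were taken when their only annotated symbol had the form Slc, a family number, a letter and a member number, Slc2a1 excepted, and when at least 1 of their probes had a detection value (here 1 minus the detection p) above 0.95 on 3 or more of the 6 arrays. By this rule 185 of the 341 such genes on the array were detected in the tumours, among 10853 genes detected in all. The arrays came from 3 tumours labelled uPA overexpression and 3 empty vector tumours. Both kinds grew from 4T1 cells, a mammary carcinoma line of BALB/c mice, transduced with a lentiviral vector for mouse uPA, the urokinase protease that activates plasminogen, or with an empty one. The cells had been put into the mammary fat pad of female BALB/c mice aged 8 to 10 weeks, and the tumours were taken on day 7. The sources used here do not give the promoter of the transgene or say whether the transduced cells were a clone.

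Most solute carriers use the gradient of sodium, protons or the solute itself as their source of energy, and a few work only with a partner chain, as the amino acid exchangers of the Slc7 family do with the heavy chain Slc3a2. In tumours they are known chiefly for feeding growing cells with sugars and amino acids and for exporting acid, and in macrophages for handling iron and the contents of phagosomes. The array reads whole tumour RNA, so cancer cells, fibroblasts, vessels and leukocytes are measured together. A larger number of cells of a type and more RNA per cell cannot be told apart in such samples.

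All values below are normalised log2 intensities of the brightest tested probe of a gene unless another probe is named, and differences are uPA overexpression minus empty vector on that scale. Intensities of different probes are not on a common scale and are not compared. Adjusted p-values are from limma, fitted over all tested probes and adjusted over 10853 genes, and a gene is called when that value is under 0.05. The labels do not say that each tumour came from its own mouse, so these p-values measure only the spread between the tumours, and 3 arrays per group limit the precision. A signal was detected for 43.6% to 46.1% of probes per array, and correlations between arrays over the tested genes ran from 0.982 to 0.993 within groups and from 0.973 to 0.987 between them. The array empty vector 2 stood apart on the second principal component, at -23.9 against -9.74 to 15.9 for the other 5, and counts without it are given with those for each other array left out. Plau, the gene of uPA, read 11.94, 12.29 and 12.20 in the tumours labelled uPA overexpression, against 12.97, 13.16 and 12.70 in the empty vector tumours. It was thus lower in the libraries labelled uPA overexpression (-0.80, SE 0.154, adjusted p = 0.0327), against their label. This rests on 1 probe, and whether it reads the transgene was not tested. The directions given below follow the labels. The keratin genes Krt8 and Krt18, defining markers of the labelled mammary tumour, were detected on all 6 arrays. Another epithelial marker, Epcam, is on the array and did not reach the detection threshold.

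Of the 185 solute carriers 158 were detected on all 6 arrays and 5 on exactly 3. Just inside the threshold were Slc25a27, Slc28a2, Slc35f5, Slc5a12 and Slc7a2, with group means between 4.44 and 5.52. Just outside it were 10 genes detected on 2 arrays, among them the lactate exporter gene Slc16a3 and the adenine nucleotide carrier gene Slc25a4, with group means between 4.58 and 5.17. The means on both sides of the threshold overlapped. Among the 5 genes just inside, Slc28a2 was the 1 whose detections all lay in a single group, the tumours labelled uPA overexpression.

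Of the 185 solute carriers 10 were higher and 8 were lower in the tumours labelled uPA overexpression. The higher ones include Slc28a2, which the detection rule passed through that group alone. Together these 18 genes were 9.73% of the solute carriers, and 5.35% of all genes tested were called. Among all genes tested 2.28% were called higher and 3.08% lower, while the 10 higher and 8 lower solute carriers made 5.41% and 4.32% of their number. Among genes detected on all 6 arrays, 15 of 158 solute carriers and 524 of 9730 genes were called, 9.49% and 5.39%. The groups did not overlap for 66 solute carriers, 35.7% of them, against 29.7% of all genes. Counts by substrate class follow below and are to be read against these shares over all genes. In classes with calls, the called share was 8.7% for ions, 11.1% for sugars, 12.5% for metals and 16.7% for amino acids. It was 16.7% for neurotransmitters and osmolytes, 20% for nucleosides and 22.2% for lipids. For carboxylates it was 28.6% and for phosphates 33.3%. The smaller classes hold few genes, so 1 gene moves their share widely. An unadjusted p under 0.05 was seen for 2310 of all 10853 genes. Whether these shares differ was not tested. By the rule of the design text, a fold of 1.5 and an unadjusted p under 0.05, 10 solute carriers were higher and 10 lower, 5.41% each, against 3.16% and 4.37% of all genes. The middle of the distribution was narrow in both: the median difference was 0.00446 for solute carriers and -0.00287 for all genes, with quartiles at -0.19 and 0.19 for solute carriers and at -0.17 and 0.16 for all genes. A difference beyond 1 on the log2 scale in either direction was seen for 7 of the 185 solute carriers and for 247 of all 10853 genes. The higher group held the iron exporter Slc40a1, the phagosomal metal transporter Slc11a1, the noradrenaline transporter Slc6a2, the hexose transporter Slc2a6 and the dicarboxylate transporter Slc13a3. The lower group held another dicarboxylate transporter, Slc13a2, the bicarbonate family members Slc4a8 and Slc4a11, the choline transporter-like gene Slc44a3 and the zinc importer Slc39a4.

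**Figure D1:**
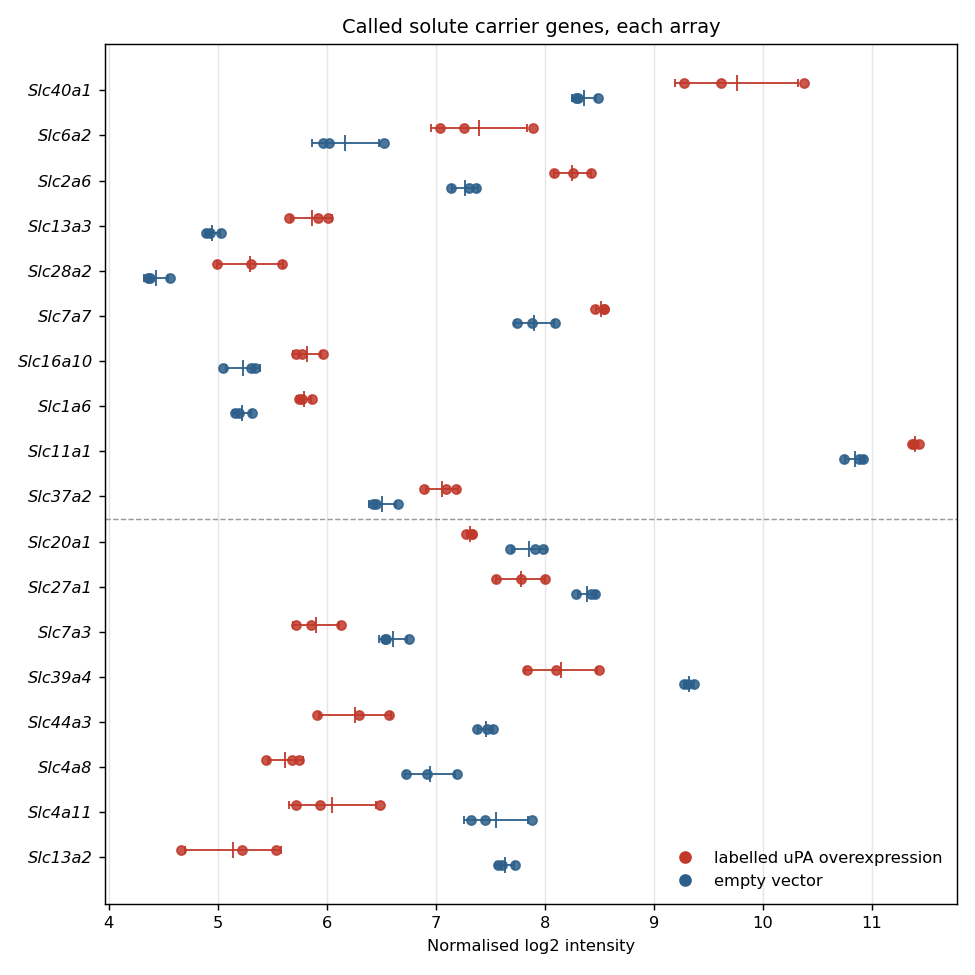
Normalised log2 intensity (horizontal axis) of the 18 called solute carrier genes on each array. Points are arrays, bars are the mean ± SD of 3 arrays, red is labelled uPA overexpression and blue is empty vector. For each of the 10 genes above the dashed line the 3 red points lie right of the 3 blue points, and for each of the 8 below it they lie left.

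The transporters of dicarboxylates gave the largest fall among the 185 solute carriers, and a rise. Slc13a2 and Slc13a3 both bring citric acid cycle intermediates into cells with sodium, and are known best from kidney and gut epithelium. Slc13a2 (probe ILMN_2646369) read 5.22, 5.53 and 4.66 in the tumours labelled uPA overexpression, against 7.57, 7.73 and 7.61 in the empty vector tumours. The empty vector values lay within a span far smaller than the gap to the other group, and among the arrays labelled uPA overexpression the probe passed background on 2 of 3. Slc13a2 fell by 2.50 (SE 0.212, adjusted p = 0.00729), and by 1.46 in the deposited processed values. Since 1 array labelled uPA overexpression gave no signal above background, the size of the fall is uncertain. Slc13a3 read 6.01, 5.65 and 5.92 in the tumours labelled uPA overexpression, against 4.89, 4.93 and 5.03 in the empty vector tumours, where it was above background on 1 array. Slc13a3 rose by 0.91 (SE 0.125, adjusted p = 0.0150). The detection rule passed it mainly through the group where it is higher, in which all 3 arrays were above background. Its inclusion thus depended in part on the difference, so its p-value is not independent support, and the size of the rise is uncertain. The other 5 detected genes of this class were not called, among them Slc16a6 of the monocarboxylate family, at 8.01, 7.47 and 7.79 in the tumours labelled uPA overexpression and 7.30, 7.68 and 7.44 in the empty vector tumours (0.28, SE 0.168, adjusted p = 0.382). The groups of Slc16a6 overlapped.

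The RefSeq promoters of this pair are shown because its members are relatives that moved in opposite directions. Each runs from 250 bases before to 50 bases after the start of transcription in the build GRCm38.p6, at chr11:78422185-78422484 on the minus strand for Slc13a2 and at chr2:165473148-165473447 on the minus strand for Slc13a3. Capitals mark any match to the letters searched on both strands, which were TGANTCA for AP-1, ACGTG and GCGTG for the hypoxia response core, TGATGNAA for the composite CHOP-ATF element, and TGCACNC and TGCGCNC for the metal response core.
Slc13a2: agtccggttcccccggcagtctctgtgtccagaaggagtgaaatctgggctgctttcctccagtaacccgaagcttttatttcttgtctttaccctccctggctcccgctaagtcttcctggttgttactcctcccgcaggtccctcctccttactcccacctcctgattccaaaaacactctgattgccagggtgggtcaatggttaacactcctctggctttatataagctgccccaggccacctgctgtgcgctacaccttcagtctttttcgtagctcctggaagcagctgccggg
Slc13a3: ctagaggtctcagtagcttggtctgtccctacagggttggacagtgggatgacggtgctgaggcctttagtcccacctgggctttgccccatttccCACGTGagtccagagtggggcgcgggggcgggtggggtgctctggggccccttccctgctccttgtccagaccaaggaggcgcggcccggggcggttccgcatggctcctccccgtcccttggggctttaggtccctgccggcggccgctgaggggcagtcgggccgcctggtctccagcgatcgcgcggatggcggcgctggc
Slc13a2 has 0 matches in this window, and Slc13a3 has 2 that overlap on opposite strands, both of the hypoxia core. That core is found in 43.8% of the 32851 promoters of this length, AP-1 letters in 7.81%, the CHOP-ATF letters in 3.97% and the metal core in 25.7%. A match describes the letters and not a site of binding. Of the 18 called genes 13 had a promoter in the RefSeq table, and 9 of these hold the hypoxia core in at least 1 promoter, as 6 of the 8 higher and 3 of the 5 lower genes do. AP-1 letters were found in 1 of the 13, Slc37a2, the CHOP-ATF letters in 1, Slc7a7, and the metal core in 2, Slc20a1 and Slc27a1, and 3 of the 13 genes have several listed promoters, so their chance of a match is larger.

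Metal transporters were detected almost completely, 24 of 29 on the array, and 2 were higher and 1 lower, with a class median of -0.04. Slc40a1 encodes ferroportin, which exports iron from macrophages, gut and placenta. It read 10.38, 9.62 and 9.28 in the tumours labelled uPA overexpression, against 8.29, 8.49 and 8.30 in the empty vector tumours. The tumour labelled uPA overexpression 1 was the highest, and all 3 of its group lay above the empty vector tumours, which were close together. Slc40a1 rose by 1.40 (SE 0.262, adjusted p = 0.0302), and by 1.08 without that array, where it was not called (adjusted p = 0.0526, within a range of 0.0157 to 0.102 over all alternatives).

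Slc11a1 encodes the metal pump of the phagosome membrane in macrophages and neutrophils. BALB/c mice are known to carry a loss of function allele of it, which a transcript level does not show. Its brightest probe (ILMN_2675811) read 11.39, 11.43 and 11.37 in the tumours labelled uPA overexpression, against 10.74, 10.92 and 10.88 in the empty vector tumours. The gene rose by 0.55 on this probe (SE 0.0998, adjusted p = 0.0288). Its other 3 tested probes, which are dimmer, gave larger rises of 1.36, 1.77 and 1.49, all called over probes (adjusted p = 0.0195, 0.00959 and 0.00959). The mean of its 4 probes rose by 1.29, so the direction was common to all 4 and the size depended on the probe. Its promoter is shown as that of the higher gene with the most probes called, at chr1:74374953-74375252 on the plus strand, with the same marking.
Slc11a1: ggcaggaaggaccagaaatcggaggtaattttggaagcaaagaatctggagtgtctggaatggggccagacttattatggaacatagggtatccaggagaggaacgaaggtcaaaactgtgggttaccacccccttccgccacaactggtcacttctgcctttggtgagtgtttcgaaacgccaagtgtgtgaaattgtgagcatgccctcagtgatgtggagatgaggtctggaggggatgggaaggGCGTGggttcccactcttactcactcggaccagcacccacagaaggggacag
It holds 1 match, to the hypoxia core.

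Slc39a4, which brings zinc into epithelial cells, was the lower member among metals. It read 8.10, 8.50 and 7.84 in the tumours labelled uPA overexpression, against 9.28, 9.37 and 9.31 in the empty vector tumours, and fell by 1.17 (SE 0.171, adjusted p = 0.0172). The spread of the empty vector tumours was an SD of 0.04, and that of the others 0.34. It was the only gene of the Slc30 and Slc39 zinc transporter families called by limma. Slc30a9, named after its value was seen, differed by -0.49 (SE 0.121, adjusted p = 0.0638), with groups that did not overlap.

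Markers of macrophages moved with the higher group. Of 9 measured macrophage markers 6 were called higher and 0 lower, and their mean log2 level ran from 10.01 to 10.28 in the tumours labelled uPA overexpression and from 9.40 to 9.43 in the empty vector tumours. Adgre1, a surface marker of mouse macrophages, differed by 0.65 (SE 0.144) and Mrc1, the mannose receptor, by 0.76 (SE 0.149). Of 5 mast cell markers 4 were called higher, and Kit was not (0.36, SE 0.222, adjusted p = 0.402). The mean level of the 5 was 8.27 to 8.58 in the tumours labelled uPA overexpression, against 6.68 to 7.20 in the empty vector tumours. Epithelial markers moved with the lower group: of 7 measured 4 were called lower. The mean level of the 7 ran from 10.83 to 11.12 in the tumours labelled uPA overexpression and from 11.71 to 11.89 in the empty vector tumours. Krt8 (-0.21, SE 0.101, adjusted p = 0.29) and Krt18 (-0.27, SE 0.162, adjusted p = 0.387) were not among the called. Of 7 measured hypoxia genes 3 were called lower, with mean levels of 10.70 to 10.98 in the tumours labelled uPA overexpression and 11.45 to 11.69 in the empty vector tumours. The part of these cells and of the hypoxia genes in the transporter differences was not tested. The epithelial marker Epcam and the hypoxia gene Bnip3 did not reach the detection threshold. Neither did the fat markers Plin1 and Fabp4 or the muscle markers Ckm and Myh4. By limma 0 measured genes of the fat, muscle and erythroid lists were called. Those lists varied widely between arrays. The mean level of 3 muscle genes ran from 5.92 to 10.39 in the tumours labelled uPA overexpression and from 4.82 to 8.52 in the empty vector tumours. For 3 fat genes it ran from 5.45 to 6.61 in the tumours labelled uPA overexpression and from 4.99 to 7.51 in the empty vector tumours. For 2 erythroid genes it ran from 7.44 to 8.59 in the tumours labelled uPA overexpression and from 7.74 to 8.88 in the empty vector tumours.

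Amino acid transporters had 3 genes higher and 1 lower among 24 detected, with a median of 0.00. The called share was 16.7%, against 5.35% of all genes, and whether these differ was not tested. Slc7a7 is a light chain that, bound to Slc3a2, exchanges cationic for neutral amino acids. It read 8.54, 8.54 and 8.46 in the tumours labelled uPA overexpression, against 7.88, 7.74 and 8.09 in the empty vector tumours, a rise of 0.61 (SE 0.119, adjusted p = 0.0343). Its other probes gave 0.76 and 0.32, in the same direction and not called over probes (adjusted p = 0.0805 and 0.311), and with the mean of its probes the gene was not called (0.56, adjusted p = 0.0704). Its partner chain Slc3a2 read 6.53, 6.29 and 6.04 in the tumours labelled uPA overexpression, against 6.45, 6.50 and 6.63 in the empty vector tumours, and was not called (-0.24, SE 0.143, adjusted p = 0.383). The 2 groups of Slc3a2 overlapped, while those of its partner Slc7a7 did not.

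Slc16a10, a carrier of aromatic amino acids and thyroid hormone, read 5.77, 5.72 and 5.96 in the tumours labelled uPA overexpression, against 5.30, 5.34 and 5.05 in the empty vector tumours. It rose by 0.59 (SE 0.125, adjusted p = 0.0431). Slc1a6, a glutamate transporter known from Purkinje cells of the cerebellum, read 5.74, 5.77 and 5.86 in the tumours labelled uPA overexpression, against 5.31, 5.16 and 5.19 in the empty vector tumours. It rose by 0.57 (SE 0.0997, adjusted p = 0.0253). Both probes are dim, and without background correction the differences were 0.27 for Slc16a10 and 0.26 for Slc1a6, neither called. In the deposited processed values they were 0.26 for Slc16a10 and 0.25 for Slc1a6, neither called. Slc7a3, a cationic amino acid transporter, read 6.13, 5.72 and 5.85 in the tumours labelled uPA overexpression, against 6.54, 6.53 and 6.75 in the empty vector tumours, and fell by 0.71 (SE 0.137, adjusted p = 0.0341). A second, dimmer probe of Slc7a3 differed by -0.06 (SE 0.156), and with the mean of both probes the gene was not called. Among amino acid transporters that were not called, Slc38a2, which imports glutamine and other small neutral amino acids, differed by -0.12 (SE 0.0969, adjusted p = 0.525). Slc7a8 and the cystine importer Slc7a11 were named after their values were seen. Slc7a8 differed by 0.48 (SE 0.117, adjusted p = 0.0639). For Slc7a11 the difference was -0.22 (SE 0.233, adjusted p = 0.643). The groups of Slc7a8 did not overlap and those of Slc7a11 did.

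**Figure D2:**
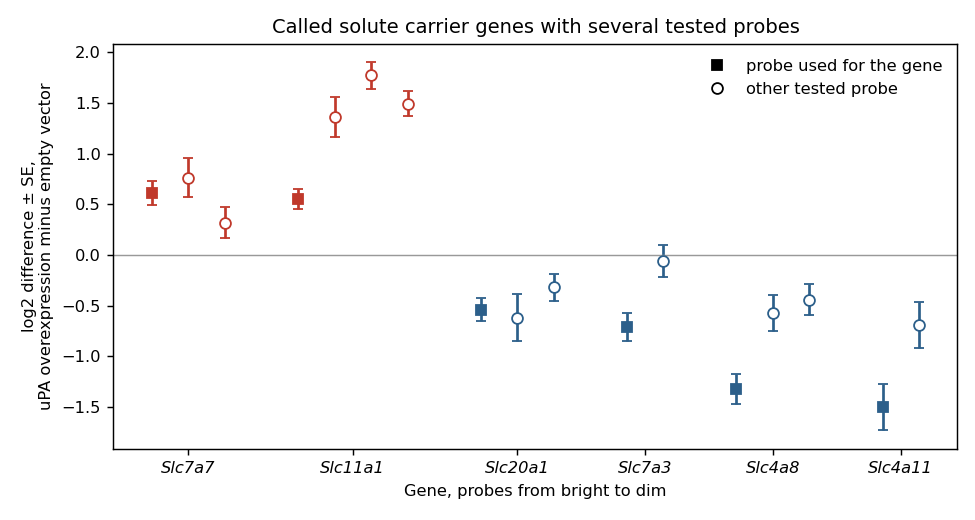
log2 difference ± SE (vertical axis, uPA overexpression minus empty vector) of each tested probe of the 6 called solute carrier genes with several probes, from bright to dim within a gene. Squares are the probes that stand for the gene, and all probes of a gene share its sign, from 0.55 to 1.77 in Slc11a1 and from -0.71 to -0.06 in Slc7a3.

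Ion transporters had 2 genes lower and 0 higher by limma among 23 detected, with a median of 0.02. The called share was 8.7%, against 5.35% of all genes, and whether these differ was not tested. An unadjusted p under 0.05 was seen for 5 of the 23, and for 2310 of all 10853 genes. Both lower genes belong to the bicarbonate transporter family. Slc4a8 exchanges sodium and bicarbonate for chloride and so raises the pH of the cell. It read 5.44, 5.74 and 5.68 in the tumours labelled uPA overexpression, against 6.92, 7.19 and 6.73 in the empty vector tumours, and fell by 1.32 (SE 0.150, adjusted p = 0.0122). Its other probes gave -0.57 and -0.44, neither called over probes (adjusted p = 0.145 and 0.175). Averaging its probes gave -0.78, still called (adjusted p = 0.0296, within 0.0036 to 0.0514 over all alternatives). Slc4a11, known for moving protons and ammonia in the corneal endothelium, read 5.72, 6.49 and 5.94 in the tumours labelled uPA overexpression, against 7.32, 7.88 and 7.45 in the empty vector tumours. It fell by 1.50 (SE 0.229, adjusted p = 0.0182), and its second probe differed by -0.69 (adjusted p = 0.152 over probes). Slc12a2, which takes up sodium, potassium and chloride together, differed by -0.09 (SE 0.136, adjusted p = 0.735), with overlapping groups. Slc12a3, named after its values were seen, differed by 0.18 on its brightest probe (SE 0.122, adjusted p = 0.457). A dimmer probe of Slc12a3 differed by -0.94 (SE 0.159, adjusted p = 0.0272 over probes), the other way. Slc9a9, a sodium and proton exchanger of endosomes named after its value was seen, differed by 0.70 (SE 0.187, adjusted p = 0.0815), with groups that did not overlap, and was called without empty vector 2 (0.89, adjusted p = 0.0240).

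Carriers of lipids and choline had 2 genes called lower and 0 higher by limma among 9, 4 at an unadjusted p under 0.05, and a median of -0.29. The groups did not overlap for 5 of the 9, all with the tumours labelled uPA overexpression below, against 15.5% of all genes in that direction, and whether these shares differ was not tested. Slc44a3, a choline transporter-like protein, read 6.57, 6.29 and 5.91 in the tumours labelled uPA overexpression, against 7.47, 7.52 and 7.38 in the empty vector tumours, and fell by 1.20 (SE 0.171, adjusted p = 0.0159). Slc27a1, which brings fatty acids into muscle and fat cells, read 7.55, 7.78 and 8.00 in the tumours labelled uPA overexpression, against 8.42, 8.29 and 8.46 in the empty vector tumours, and fell by 0.61 (SE 0.136, adjusted p = 0.0480). The part of the varying muscle and fat content in this difference was not tested. The other detected genes of the Slc27 and Slc44 families were not called. Slc44a1, named after its value was seen, differed by -0.55 (SE 0.139, adjusted p = 0.0689). For Slc44a2 the difference was -0.32 (SE 0.121, adjusted p = 0.188). All 3 detected genes of the Slc44 family had groups that did not overlap on the brightest probe, with the tumours labelled uPA overexpression below. A dimmer probe of Slc44a1 differed by 0.23 (SE 0.318), the other way.

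Among sugar carriers 1 of 9 was called, Slc2a6, and it was higher, against a class median of -0.16. It read 8.08, 8.26 and 8.42 in the tumours labelled uPA overexpression, against 7.14, 7.37 and 7.30 in the empty vector tumours, and rose by 0.98 (SE 0.126, adjusted p = 0.0136), a level 1.97-fold higher. Slc2a1, the main glucose importer of many tumours and not among the 185 genes, read 10.69, 11.10 and 10.76 in the tumours labelled uPA overexpression, against 12.12, 11.94 and 11.98 in the empty vector tumours, and fell by 1.16 (SE 0.137, adjusted p = 0.0134). Slc2a3, a glucose importer of neurons and leukocytes named after its value was seen, differed by -0.39 (SE 0.146, adjusted p = 0.184), with groups that did not overlap. Slc50a1, a sugar carrier of the Golgi, differed by -0.16 (SE 0.105, adjusted p = 0.440). Members of the hexose family thus gave calls in both directions.

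Slc37a2 and Slc20a1 were called in opposite directions in the small class of phosphate and sugar phosphate carriers, in which 6 genes were detected. Slc37a2, a sugar phosphate exchanger described in macrophages, read 7.18, 7.09 and 6.89 in the tumours labelled uPA overexpression, against 6.65, 6.42 and 6.45 in the empty vector tumours, a rise of 0.55 (SE 0.122, adjusted p = 0.0493). It was not called with 75th percentile scaling, without a filter on dim probes or with a trended and robust prior (adjusted p = 0.0532, 0.0515 and 0.0537). Slc20a1, a sodium phosphate importer that also serves as a retrovirus receptor, read 7.33, 7.33 and 7.28 in the tumours labelled uPA overexpression, against 7.91, 7.68 and 7.98 in the empty vector tumours. It fell by 0.54 (SE 0.114, adjusted p = 0.0417), and its other probes gave -0.62 and -0.32 (adjusted p = 0.206 and 0.253 over probes).

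Of 5 nucleoside carriers 1 was called. Slc28a2, which takes up purine nucleosides with sodium, read 4.99, 5.30 and 5.59 in the tumours labelled uPA overexpression, against 4.56, 4.36 and 4.38 in the empty vector tumours, where it was above background on 0 arrays. Its means of 5.29 and 4.44 differed by 0.86 (SE 0.164, adjusted p = 0.0322). Set against the lowest detected signal of each empty vector array, its mean was 1.21-fold higher, a bound that leaves out the spread between arrays. Since the detection rule passed this gene through 1 group alone, its inclusion depended on the difference, and its p-value gives no support for a difference. A near-identical gene copy, Slc28a2b, is known in the mouse, and which of them the probe reads was not tested. Slc29a1, an equilibrative carrier of the cell surface, differed by 0.34 (SE 0.115, adjusted p = 0.148), and its dimmer probe by 1.04 (SE 0.321, adjusted p = 0.137 over probes). Its lysosomal relative Slc29a3, named after its value was seen, differed by 0.50 (SE 0.123, adjusted p = 0.0633). On the brightest probe the groups did not overlap for either, with the tumours labelled uPA overexpression above.

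Among 6 carriers of neurotransmitters and osmolytes Slc6a2 was called. This gene of noradrenaline uptake read 7.89, 7.04 and 7.26 in the tumours labelled uPA overexpression, against 6.02, 5.96 and 6.52 in the empty vector tumours, and rose by 1.23 (SE 0.246, adjusted p = 0.0365). The taurine importer Slc6a6 read 12.80, 12.82 and 12.84 on its brightest probe in the tumours labelled uPA overexpression, against 12.87, 13.16 and 12.95 in the empty vector tumours, and was not called (-0.17, SE 0.111, adjusted p = 0.420), though the groups did not overlap. A dimmer probe of Slc6a6, annotated to another transcript, fell by 1.36 (SE 0.202, adjusted p = 0.0201 over probes), so its probes differ in the size of the difference and with their mean the gene was called lower (-0.77, adjusted p = 0.0128, within 0.0128 to 0.678 over all alternatives).

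Of 32 mitochondrial carriers 0 were called in either direction by limma, with 7 at an unadjusted p under 0.05, as 2310 of all 10853 genes were. The groups did not overlap for 12 of the 32, against 29.7% of all genes. The class had a median of 0.02 and differences from -0.41 to 0.48. Slc25a45 lay at the edge of the threshold, at 9.98, 9.81 and 9.78 in the tumours labelled uPA overexpression, against 9.45, 9.39 and 9.28 in the empty vector tumours (0.48, SE 0.108, adjusted p = 0.0500, just above the limit), and passed it without background correction (adjusted p = 0.0208). Slc25a5, the exchanger of ADP for ATP, differed by 0.21 (SE 0.128, adjusted p = 0.398). Of 11 nucleotide sugar carriers of the Golgi and endoplasmic reticulum 0 were called by limma and 0 had an unadjusted p under 0.05, with differences from -0.10 to 0.21. Slc35b2, which brings activated sulfate into the Golgi, differed by 0.01 (SE 0.0984, adjusted p = 0.959), and the fucose carrier Slc35c1 by 0.19 (SE 0.111, adjusted p = 0.370). That they were not called does not show equal levels, since for both the standard error is about 0.1.

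The vitamin class, the class of peptides and organic ions, and the genes of other or unsettled substrate had 0 calls by limma, with 2, 1 and 1 genes at an unadjusted p under 0.05. The multivitamin importer Slc5a6 differed by 0.14 (SE 0.103, adjusted p = 0.493), and Slc23a3, a relative of the ascorbate carriers detected on 1 array labelled uPA overexpression and on all 3 of the empty vector, by -0.62 (SE 0.180, adjusted p = 0.105). Slc15a3, a lysosomal peptide and histidine carrier of leukocytes, read 10.07, 10.53 and 9.90 in the tumours labelled uPA overexpression, against 10.57, 10.38 and 10.53 in the empty vector tumours, and was not called (-0.32, SE 0.171, adjusted p = 0.330). Slc22a18, of the organic ion family, differed by -0.60 (SE 0.238, adjusted p = 0.213), and its dimmer probe by 0.05 (SE 0.151). In the class of other or unsettled substrates Slc35e3 differed by 0.51 (SE 0.134, adjusted p = 0.0742) and Slc35b1, an adenine nucleotide carrier of the endoplasmic reticulum, by 0.28 (SE 0.127, adjusted p = 0.265).

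**Figure D3:**
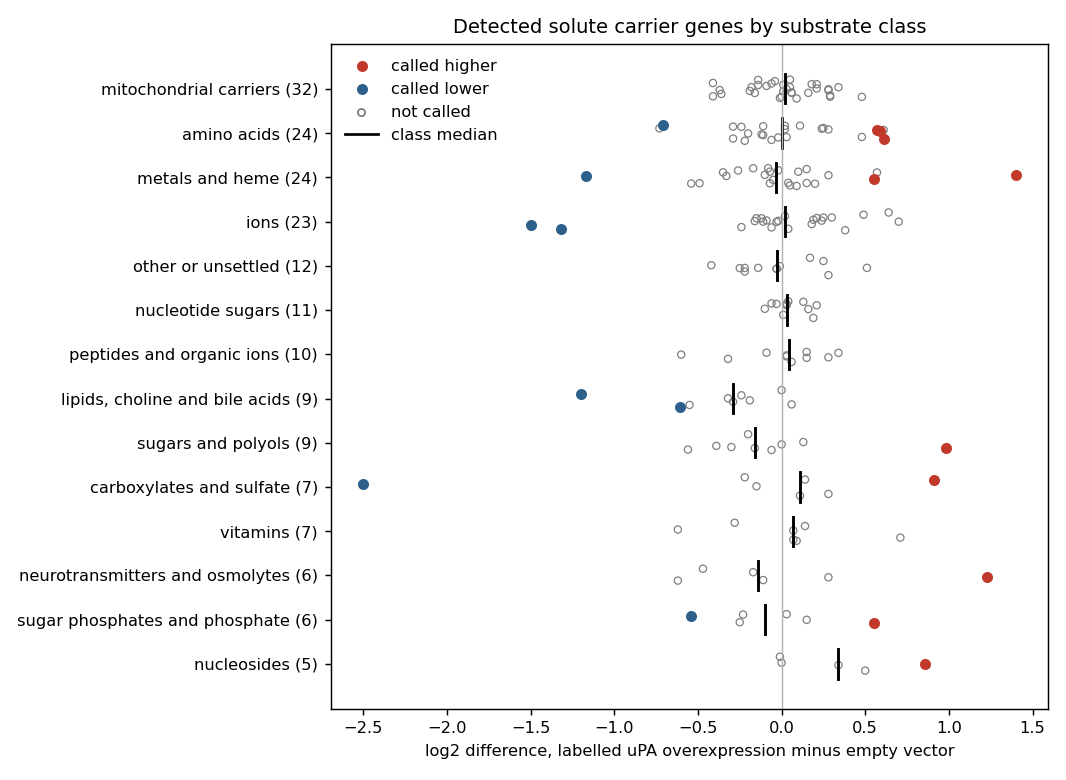
log2 difference (horizontal axis, uPA overexpression minus empty vector) of the 185 detected solute carrier genes by substrate class, with the number detected in parentheses and the class median as a black bar. Filled points are the 18 called genes. The called genes lie on both sides of 0 and the class medians lie between -0.29 and 0.34, while 0 of the 32 mitochondrial and 0 of the 11 nucleotide sugar carriers are filled.

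Transporters outside the solute carrier symbols were set beside these genes from a list of ABC pumps, organic anion carriers of the Slco family and a few partner genes. Of 66 on the array 30 were detected, and 2 were higher and 2 lower. Over all genes tested 2.28% were called higher and 3.08% lower, and whether the shares differ was not tested. Slco2b1, an organic anion carrier, read 10.26, 9.41 and 10.10 in the tumours labelled uPA overexpression, against 8.00, 8.84 and 7.67 in the empty vector tumours, a rise of 1.75 (SE 0.333, adjusted p = 0.0315). Abcc10, an ABC pump of the drug export family, rose by 0.47 (SE 0.0950, adjusted p = 0.0386). Slco4a1, which carries thyroid hormone, fell by 1.85 (SE 0.334, adjusted p = 0.0285). Slco1a5, detected on 1 of the 3 uPA overexpression arrays and on all 3 of the empty vector, fell by 0.96 (SE 0.132, adjusted p = 0.0150). The size of this fall is uncertain. The detection rule passed Slco1a5 mainly through the empty vector arrays, so its p-value is not independent support. Without a filter on dim probes Slco2b1 and Slco4a1 were not called (adjusted p = 0.0601 and 0.0527), nor was Abcc10 without background correction (adjusted p = 0.0611). The median of the 30 was 0.0479.

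**Figure D4:**
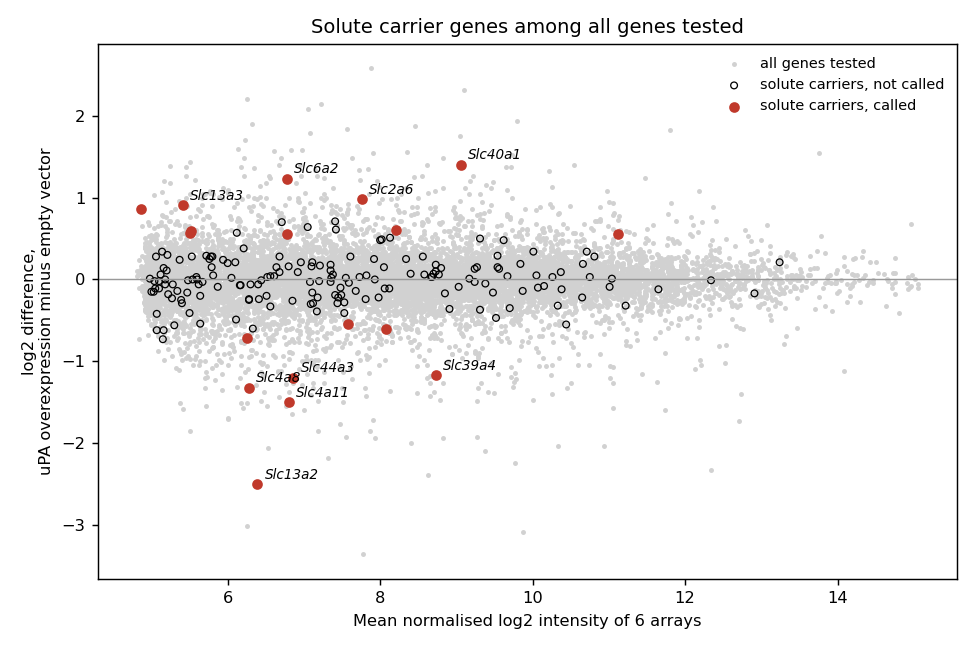
log2 difference (vertical axis, uPA overexpression minus empty vector) against mean normalised log2 intensity over 6 arrays (horizontal axis). Grey points are the 10853 genes tested, open circles the solute carriers not called and red points the 18 called, of which those beyond 0.9 are named. Slc13a2 at -2.50 is the lowest solute carrier and Slc40a1 at 1.40 the highest.

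The calls rested on few arrays. Of the 18 called solute carriers 3, 8 and 4 were still called without the array labelled uPA overexpression 1, 2 or 3, and 1, 14 and 2 without empty vector 1, 2 or 3, though each difference kept its sign. Slc13a2 was called in all 6 of these fits (adjusted p from 0.00782 to 0.0407), Slc4a8 and Slc44a3 in 4 and Slc2a6 in 3. Slc13a3, Slc39a4, Slc4a11 and Slc40a1 were called in 2 of them. The genes Slc1a6, Slc11a1, Slc7a3, Slc7a7, Slc6a2, Slc20a1 and Slc16a10 were called in 1, and Slc28a2, Slc27a1 and Slc37a2 in 0 by limma, with adjusted p up to 0.151. Without a filter on dim probes, which adjusts over more genes, Slc40a1, Slc6a2 and Slc27a1 were not called (adjusted p = 0.0548, 0.0643 and 0.0582), and with an offset of 50 neither were Slc28a2 and Slc16a10 (adjusted p = 0.054 and 0.061). In the deposited processed values the differences of dim probes were smaller, at -1.46 for Slc13a2, -0.75 for Slc4a8, -0.78 for Slc44a3, -0.96 for Slc4a11, -0.39 for Slc7a3, 0.41 for Slc13a3, 0.48 for Slc28a2, 0.79 for Slc6a2 and 0.35 for Slc37a2. Of 61 solute carriers with several tested probes 25 had probes of opposite sign, but 0 of the 6 such genes among the 18 did.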

How the data were processed

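Biotinylated cRNA from tumours was hybridised to Illumina MouseWG-6 v2.0 arrays, per the labels. The deposited raw table holds an intensity per probe and array, without background subtraction or normalisation as far as the values show, and a detection fraction that is 1 minus p although the file header names it a p-value. The deposited processed values are log2, and the series design text names GeneSpring GX 11.0 for the processing. They are centred per probe on an unknown level. Their column medians were 0.00332, 0.00247 and 0.00288 for uPA overexpression 1, 2 and 3 and 0.00227, 0.0042 and 0.00197 for empty vector 1, 2 and 3. The sources used here give no scanner or summary settings.

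The tables name probes differently, so rows were joined by values: 45266 of 45281 matched as mutual nearest rows at least 3 times nearer than the next (median distance 0.000661 against 0.0325), and on shuffled values without added noise, a lenient check, 0 matches were wrong. No probe list of the maker was at hand to check the join. Symbols came from the GEO platform annotation, with 34885 probes of 1 symbol, 18 of several and 10378 of none. Intensities were corrected by normexp from detection p-values (offset 16), quantile-normalised and put on a log2 scale, and 20434 probes (45.1%) detected on 3 or more arrays were fitted with limma 3.58.1 in R 4.3.3 (lmFit, eBayes, no covariates, two-sided, Benjamini-Hochberg), with the brightest probe standing for a gene. The offset makes differences of dim probes smaller than the true ones. The fit was tested on simulated data. Matching used Python 3.11.15 and scipy 1.17.1. Promoters came from RefSeq (GRCm38.p6), which held 144 of the 185 genes.

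The genes and lists were chosen with earlier results of these data known. Substrate classes follow families, with exceptions for single genes, so a class can hold members with other or unproven substrates. Genes were named when called, when they had the brightest probe or the smallest p of a class, as heavy chains, as called other transporters, or as genes just inside or outside the detection threshold. Alternatives changed the background step (none, or offset 50), the scaling (75th percentile), the filter (none, or detection on all 6 arrays), the values (those deposited as processed), the model (replicate number as block), the probe rule (mean of all probes) and the prior (trended and robust), and used the fold of 1.5 with unadjusted p under 0.05 of the design text, each array left out and, chosen after seeing the data, 2 arrays left out together.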

Additional observations from a re-analysis of the deposited data

How the results depend on the processing

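The counts of genes called, of solute carriers higher and lower, and of other transporters higher and lower were 581, 10, 8, 2 and 2. Leaving out 1 array gave 27 to 604, 0 to 10, 1 to 9, 0 to 3 and 0 to 2, the fewest genes without empty vector 1 and the most without empty vector 2. In those fits 21 to 29 solute carriers were higher and 17 to 26 lower at an unadjusted p under 0.05, and 5 to 8 and 2 to 4 other transporters. Of all 10853 genes 1756 to 2493 passed that limit in the same fits. Leaving out empty vector 2 and uPA overexpression 1 together, chosen after seeing the data, gave 221, 3, 4, 1 and 1. With the replicate number as a block the counts were 77, 1, 4, 0 and 0 by limma. At an unadjusted p under 0.05 that fit gave 20 solute carriers higher and 18 lower, and 6 and 3 other transporters. Of all genes 1738 passed that limit with the block. Same-numbered arrays had deviations that correlated at -0.11, -0.22 and 0.12, and arrays of different numbers at -0.15 to 0.31. With 3 arrays per group these values cannot settle whether the numbers pair the tumours. A trended and robust prior called 874 genes, other transporters lower numbered 1 without a filter and 1 with a filter on all 6 arrays, and other transporters higher numbered 5 with the mean of all probes. The cause of these changes was not tested, and the fits that leave arrays out also hold fewer of them. All 18 called solute carriers kept their sign under every alternative that tested them. Dim probes moved in size: without background correction and in the deposited processed values Slc13a2 differed by -1.50 and -1.46 and Slc4a8 by -0.77 and -0.75, all still called. Among the named genes signs turned for 3, none of them called: Slc12a2 (-0.16 to 0.02 over the fits without 1 array, above 0 without empty vector 2), Slc7a11 (-0.36 to 0.00, above 0 without empty vector 2) and Slc35b2 (-0.06 with 75th percentile scaling, -0.02 without uPA overexpression 3 and -0.02 without empty vector 1). Signal over background limits the size of differences for probes detected on few arrays.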
